A study of Mus musculus with 2 samples.

Results

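Proteasome genes of the mouse were followed in hippocampus at 10 days of age. Members were the genes whose symbol starts with Psma, Psmb, Psmc, Psmd, Psme, Psmf or Psmg and a digit, and that have a protein-coding transcript in the annotation. The rule found 50 of the 55536 genes in the table. One of them, Psmc3ip, a meiotic recombination factor, matched by name and is no proteasome subunit, which leaves 49. The RNA was total RNA in stranded, ribosomal-RNA-reduced libraries, from female mice of the hybrid strain B6CASTF1/J, and the labels list no treatment and no engineered allele. There was 1 group of 2 libraries, each from tissue of 3 pooled mice with other animal numbers, started from 300 ng of RNA with ERCC spike-in RNA added. The tissue is labelled as a hippocampal layer that is not named, and there is no treated, mutant or other-age group. The comparisons are therefore those among the proteasome genes within each library, and between the replicate pools.

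The proteasome is the main protease that destroys ubiquitin-tagged proteins in the cytoplasm and nucleus. Its barrel, the 20S core particle, stacks alpha rings around beta rings, and 3 kinds of beta subunit carry the active sites, named beta1, beta2 and beta5. The 19S regulatory particle sits on the barrel, binds ubiquitin, removes it and feeds the unfolded protein in. Interferon-gamma induces an alternative set of active-site subunits, beta1i (Psmb9), beta2i (Psmb10) and beta5i (Psmb8), which replace their constitutive counterparts in newly built barrels to form the immunoproteasome, best known for making peptides for MHC class I. In brain, neurons depend on constitutive proteasomes, and immunoproteasome subunits are known mainly from microglia and inflamed tissue.

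The libraries held 29858328 expected counts in replicate 1 and 32275110 in replicate 2, of which spike-ins made up 0.341% and 0.393%. The hippocampal glutamatergic neuron markers were all present, 8 of 8 at a TPM (a level per transcript length, scaled to the same total in every library) of 1 or more in both libraries, with Camk2a at 617 TPM in replicate 1 and 781 TPM in replicate 2 the highest by mean and Grik4 at 22.3 and 23.7 TPM the lowest. All 6 astrocyte markers were detected as well, between Slc1a2 at 646 and 763 TPM and Aqp4 at 96.7 and 94.02 TPM. The pools differed most widely, among the marker lists, in myelin. All 6 oligodendrocyte markers were higher in replicate 2 by the library test described further on, each with a log2 ratio of at least 1 in size. By the same rule, 114 of the 20544 genes tested were higher in replicate 2. The 6 markers summed to 194 TPM in replicate 1 and 570 TPM in replicate 2, from Mbp at 80.5 and 253 TPM to Mog at 1.87 and 8.28 TPM. Of 6 red cell markers, the highest was Hbb-bs at 351 and 333 TPM and the lowest was the anion exchanger Slc4a1. Slc4a1 was the only one that passed the same test with its ratio threshold, at 0.14 TPM in replicate 1 and 0.88 TPM in replicate 2. It had 13 and 64 counts. Hba-a1 went the other way, at 292 and 244 TPM, past the adjusted p alone with a log2 ratio of 0.158, replicate 1 over replicate 2. By the adjusted p of that test alone, 5 of 8 neuron, 5 of 6 astrocyte, 4 of 10 microglia and 2 of 8 endothelial markers were also higher in replicate 2, and none of them was higher in replicate 1; over all genes tested 15.5% were higher in replicate 2 by that rule. The part of these cell types in the results below was not tested. In bulk tissue, fewer cells of a type and less RNA per cell cannot be told apart.

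Promoter windows of the active-site genes are shown because these genes form the immunoproteasome and constitutive pairs compared below. They come from RefSeq on build GRCm38.p6, which is mm10, and cover 250 bases before to 50 after the annotated start, 300 in all. Windows were found for 42 of the 50 genes, 45 windows in all, and for 5 of the 6 active-site genes, Psmb7 having none. Psmb9 lies at chr17:34187281-34187580 and is read from the minus strand, Psmb10 at chr8:105938343-105938642 on the minus strand, and Psmb8 at chr17:34197945-34198244 on the plus strand. Among the constitutive genes, Psmb6 lies at chr11:70525107-70525406 on the plus strand and Psmb5 at chr14:54617946-54618245 on the minus strand. Each is written 5′ to 3′ in the gene's direction, and capitals mark a match to a searched motif on either strand.
Psmb9: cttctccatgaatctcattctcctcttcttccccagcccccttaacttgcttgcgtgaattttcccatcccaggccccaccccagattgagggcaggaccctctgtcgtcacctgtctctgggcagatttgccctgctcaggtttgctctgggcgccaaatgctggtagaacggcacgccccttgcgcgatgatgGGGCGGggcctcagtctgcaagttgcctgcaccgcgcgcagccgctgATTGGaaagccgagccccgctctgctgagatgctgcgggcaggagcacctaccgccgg
Psmb10: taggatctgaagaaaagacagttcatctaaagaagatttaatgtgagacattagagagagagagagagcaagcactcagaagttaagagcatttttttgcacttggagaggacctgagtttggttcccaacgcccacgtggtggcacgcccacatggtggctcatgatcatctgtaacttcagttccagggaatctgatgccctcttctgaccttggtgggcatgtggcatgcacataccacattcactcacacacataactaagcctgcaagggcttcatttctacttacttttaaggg
Psmb8: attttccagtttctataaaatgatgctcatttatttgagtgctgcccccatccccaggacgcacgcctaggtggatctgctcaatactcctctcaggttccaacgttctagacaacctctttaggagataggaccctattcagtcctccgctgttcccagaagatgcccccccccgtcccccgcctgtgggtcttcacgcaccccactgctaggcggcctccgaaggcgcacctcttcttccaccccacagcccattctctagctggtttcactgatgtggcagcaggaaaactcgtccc
Psmb6: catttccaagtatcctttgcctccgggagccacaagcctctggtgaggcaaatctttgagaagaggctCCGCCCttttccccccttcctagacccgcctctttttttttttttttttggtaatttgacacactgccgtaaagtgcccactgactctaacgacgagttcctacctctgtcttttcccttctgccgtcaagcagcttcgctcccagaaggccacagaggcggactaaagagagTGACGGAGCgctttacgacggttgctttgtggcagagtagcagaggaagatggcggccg
Psmb5: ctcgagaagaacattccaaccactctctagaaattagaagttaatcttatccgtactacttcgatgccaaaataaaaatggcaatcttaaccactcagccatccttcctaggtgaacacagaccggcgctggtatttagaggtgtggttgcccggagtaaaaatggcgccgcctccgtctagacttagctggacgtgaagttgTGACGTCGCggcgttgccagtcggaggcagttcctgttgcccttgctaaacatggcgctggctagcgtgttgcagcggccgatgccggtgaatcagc

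The motifs searched, on both strands, were an interferon regulatory factor element (GAAA, any 2 bases, GAAA), an NF-kappaB-type element (GGGA, any 2 bases, TTCC), the core of the antioxidant response element (TGACNNNGC), the CCAAT box (CCAAT) and the GC box (GGGCGG). No 2 matches shared bases in the windows printed. In Psmb6 and Psmb5 the longer capitals are antioxidant response element cores, the sequence class bound by Nfe2l1, the factor known to raise proteasome genes when the proteasome is inhibited. The short capitals are GC boxes in Psmb9 and Psmb6, and a CCAAT box on the opposite strand in Psmb9. No searched motif was matched in the Psmb10 or Psmb8 windows, which says only that these letters are absent from these 300 bases. The RefSeq starts differ from the 5′ ends of the genes in the annotation behind the counts: they lie 434 bases downstream for Psmb9, 52 for Psmb10, 474 for Psmb8 and 27 for Psmb5, and 10 bases upstream for Psmb6. Over the 42 genes, the antioxidant core was matched in 6 (14.3%), against 14% of all 27025 genes with windows. The interferon element was matched in 5 (11.9%), against 3.99% of all genes, and these were Psmb3, Psmd4, Psmd9, Psme1 and Psmg4. The GC box was matched in 23 (54.8%), against 38.2% of all genes, the CCAAT box in 15 (35.7%), against 41.1%, and the NF-kappaB-type element in 1, Psme4 (2.38%), against 1.63%.

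Most proteasome genes were highly expressed. Of the 50 genes, 46 had a TPM of 1 or more in both libraries, and 33 of the 50 lay above the 75th percentile of the 13010 nuclear protein-coding genes detected in both. The median of the 46 was 55.3 TPM in replicate 1 and 54.7 TPM in replicate 2, while that of the 13010 genes was 15.9 and 14.9 TPM. The 4 genes below detection were Psmb9, Psma8, Psmb11 and Psme2b. All 50 had 10 or more counts over both libraries, so none was left out of the count comparison further on.

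**Figure D1:**
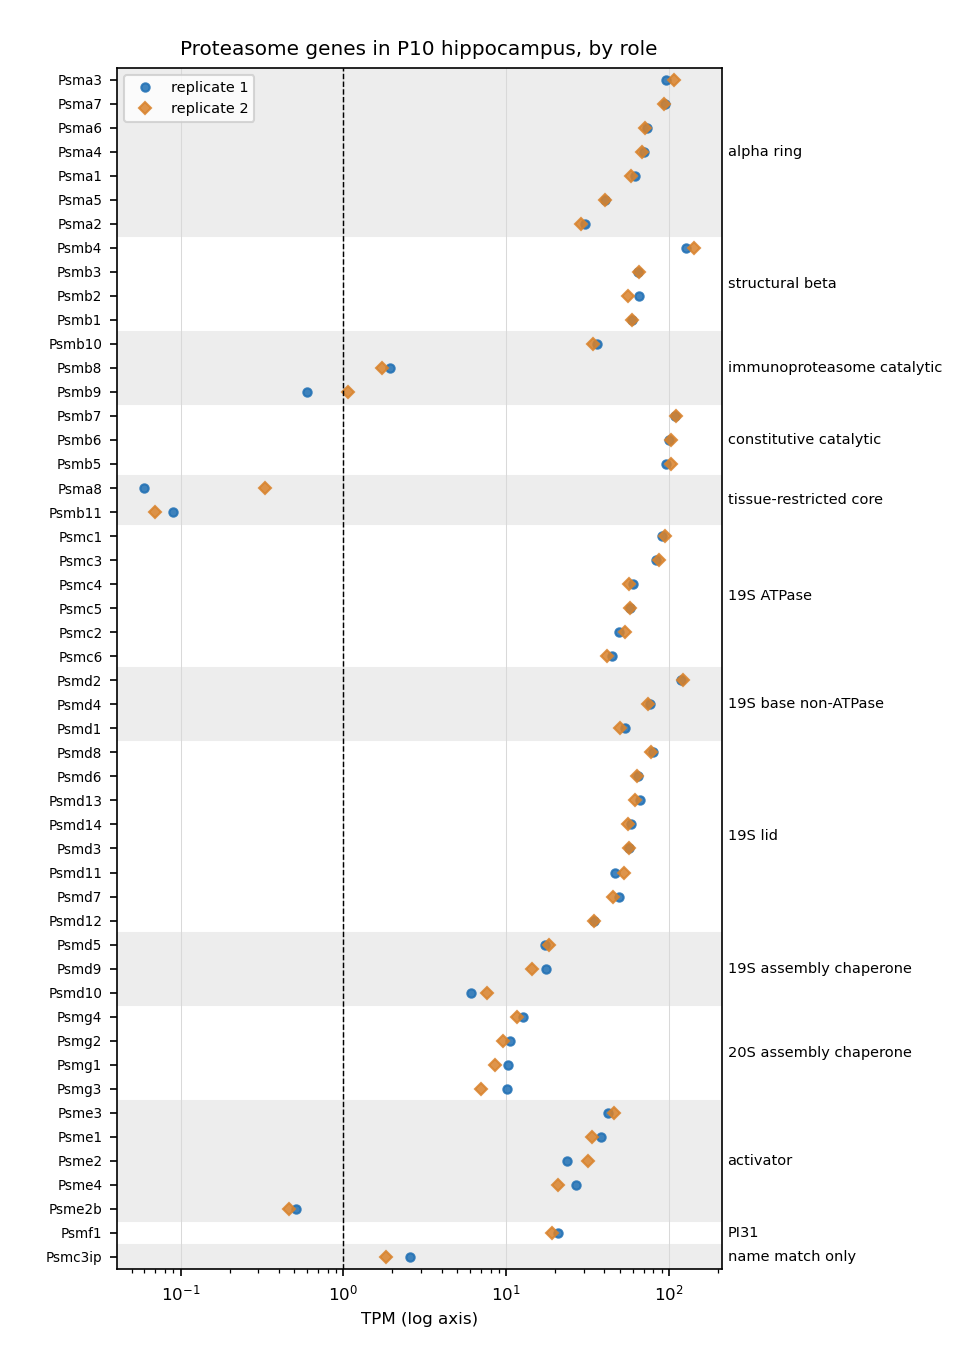
TPM (log axis) of the 50 proteasome genes in replicate 1 (blue circles) and replicate 2 (orange diamonds), grouped by role; the dashed line is the detection threshold of 1 TPM. Core and regulatory particle genes sit in a band between 28.8 and 142 TPM, assembly chaperones lie below it, and Psmb8, Psmb9, Psma8, Psmb11 and Psme2b stand far to the left.

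The alpha ring forms the gate and the docking face of the barrel, and its 7 ubiquitous genes had a median of 69.6 TPM in replicate 1 and 67.7 TPM in replicate 2 (68.7 ± 1.35, SD, n = 2). Psma3 was the highest by gene level, at 95.6 TPM in replicate 1 and 108 TPM in replicate 2. Psma2 was the lowest, at 30.3 and 28.8 TPM. The ring's subunits are built in equal numbers, yet the highest gene stood 3.16 times above the lowest in replicate 1 and 3.75 times in replicate 2. Psma7 followed Psma3 at 94.0 and 93.5 TPM, and Psma6, Psma4, Psma1 and Psma5 filled the range down to 40.2 TPM in that order in both libraries.

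The structural beta subunits, which complete the inner rings without an active site, were led by a single gene. Psmb4 was the highest proteasome gene in both libraries, at 126 TPM in replicate 1 and 142 TPM in replicate 2. Psmb3 had 64.0 and 65.2 TPM, Psmb2 65.2 and 56.1 TPM, and Psmb1, the lowest by mean, 59.2 and 59.4 TPM, so that Psmb3 lay above Psmb1 in both libraries, while the position of Psmb2 differed between them.

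The constitutive active-site subunits lay close together by the gene levels used here. Psmb7 (beta2, trypsin-like) had 109 TPM in replicate 1 and 110 TPM in replicate 2. Psmb6 (beta1, caspase-like) had 100.19 and 102.88 TPM. Psmb5 (beta5, chymotrypsin-like and the main target of proteasome inhibitor drugs) had 95.04 and 102.76 TPM. Psmb6 and Psmb5 overlapped between the libraries and Psmb7 lay above both. Their coefficient of variation was 7.14% in replicate 1 and 3.70% in replicate 2, while that of the alpha ring was 37.3% and 41.6%. The closeness did not hold on other scales. With coding transcripts only, Psmb6 lay below Psmb5 in both libraries, at 84.1 and 84.8 TPM beside 95.05 and 102.76 TPM. In the deposited read-based table, Psmb5 had 116 and 118 TPM, Psmb6 152 and 148 TPM, and Psmb7 181 and 183 TPM.

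Immunoproteasome subunits were scarce beside them, except Psmb10 by gene level. Psmb9 (beta1i) had 0.60 TPM in replicate 1 and 1.06 TPM in replicate 2, on 12 and 15 counts, with exact Poisson 95% intervals of 6.20 to 20.96 and 8.40 to 24.7 counts that cover counting error alone. Psmb8 (beta5i) had 1.93 and 1.72 TPM, on 40 counts in each library with an interval of 28.6 to 54.5. Psmb10 (beta2i) had 36.1 and 34.04 TPM, on 423 and 492 counts. Psmb8 and Psmb9 were at the edge of what these libraries measure, whereas Psmb10 lay just above Psma2, the lowest constitutive core gene.

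Within each library, every immunoproteasome subunit was lower than the constitutive one that takes the same place in the ring. The log2 ratio of TPM with 0.1 added, immunoproteasome over constitutive, was −6.82 ± 0.49 for Psmb9 over Psmb6 (SD, n = 2), with −7.16 in replicate 1 and −6.47 in replicate 2. For Psmb8 over Psmb5 it was −5.69 ± 0.19, with −5.55 and −5.82. For Psmb10 over Psmb7 it was −1.64 ± 0.06, with −1.60 and −1.68. As plain ratios, Psmb6 exceeded Psmb9 by 167 times in replicate 1 and 97.1 times in replicate 2, Psmb5 exceeded Psmb8 by 49.2 and 59.7 times, and Psmb7 exceeded Psmb10 by 3.03 and 3.22 times. No test was made, because with 2 libraries the smallest exact two-sided p that sign changes allow is 0.5.

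Summed over the 3 sites, immunoproteasome genes held 38.7 TPM in replicate 1 and 36.8 TPM in replicate 2, while the constitutive genes held 305 and 315 TPM. The immunoproteasome share of active-site TPM was 10.9 ± 0.57% (SD, n = 2). Psmb10 alone made up 93.5% and 92.5% of the immunoproteasome sum, and with the beta2 pair left out the share was 1.28% in replicate 1 and 1.33% in replicate 2.

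**Figure D2:**
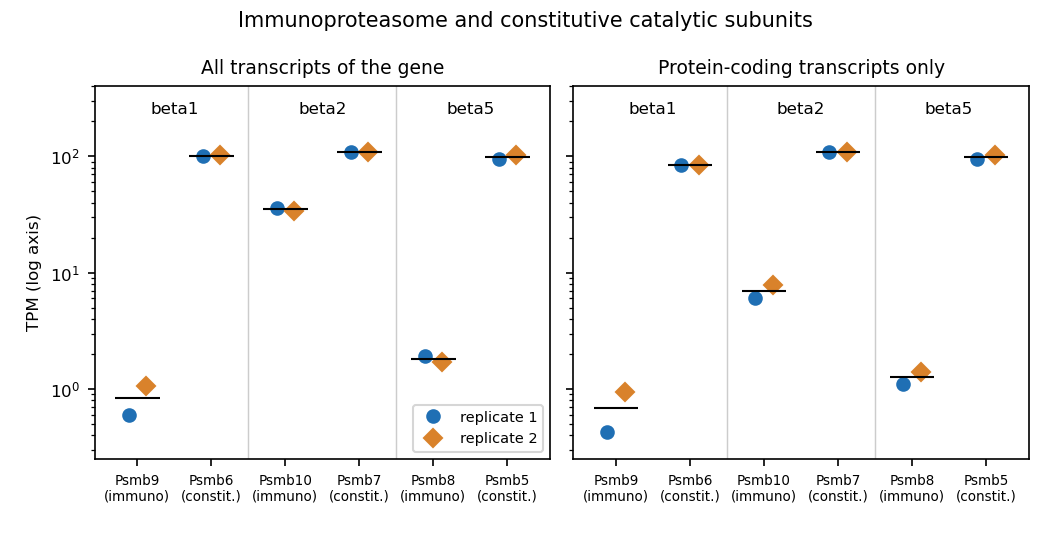
TPM (log axis) of each immunoproteasome subunit beside its constitutive counterpart, from all transcripts of the gene (left) and from protein-coding transcripts only (right). Circles are replicate 1, diamonds replicate 2 and bars their mean. Psmb10 lies at 36.1 and 34.04 TPM on the left and at 6.10 and 7.84 TPM on the right, while Psmb7 stays near 109 TPM on both sides.

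The level of Psmb10 depended on which of its transcripts were counted. Psmb10 lies at chr8:105935735-105938444 on the minus strand (mm10) and has 7 annotated transcripts, of which Psmb10-201 alone is coding. Psmb10-205, a retained-intron transcript, led in both libraries, with 13.9 TPM in replicate 1 and 18.1 TPM in replicate 2. Psmb10-203, a processed transcript, had 13.0 and 5.10 TPM. The coding Psmb10-201 had 6.10 and 7.84 TPM, which is 16.9% and 23.0% of the gene's TPM. By counts, which are not divided by length, its share was 36.1% in replicate 1 and 43.8% in replicate 2.

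The short transcripts have little sequence of their own. Psmb10-205 has 554 bases, of which 494 lie in exons of Psmb10-201 and 60 do not, and Psmb10-203 has 426 bases, of which 378 are shared and 48 are not. The tables also divided the reads differently. In the read-based table Psmb10-205 led in replicate 1 at 31.6 TPM and was listed at 0 in replicate 2, where Psmb10-203 led at 42.6 TPM. The coding transcript held 25.04% and 27.6% of the gene's TPM there. A long antisense gene, Gm16156, spans the whole of Psmb10 without sharing an exon base with it. How much of the Psmb10 level is RNA of the short transcripts was not tested.

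**Figure D3:**
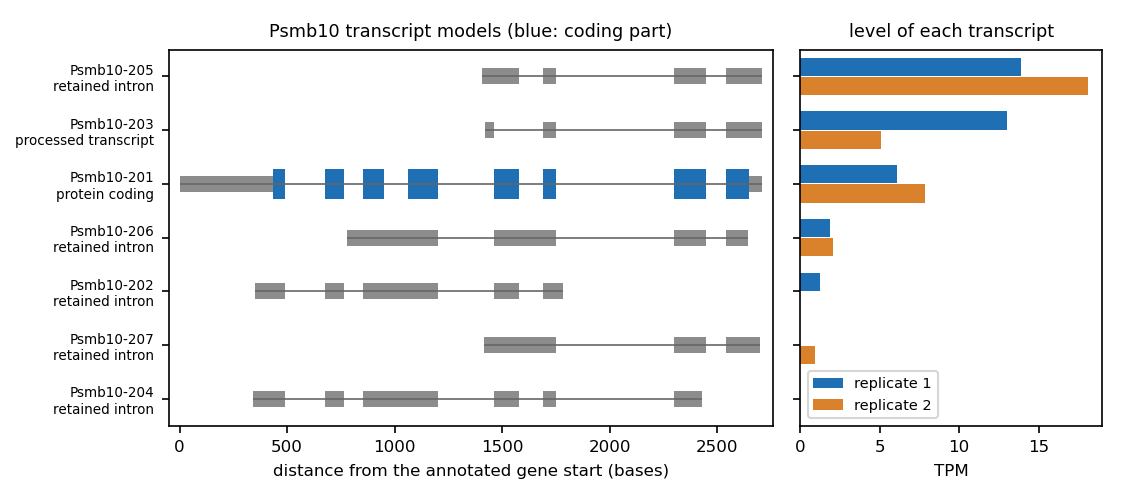
Left, the 7 annotated transcripts of Psmb10 drawn to scale from the gene's annotated 5′ start (x axis, bases), with exons in grey and the coding part of Psmb10-201 in blue. Right, the TPM of each transcript in replicate 1 (blue) and replicate 2 (orange); Psmb10-205 leads in both, at 13.9 and 18.1 TPM, and the coding Psmb10-201 has 6.10 and 7.84 TPM.

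With protein-coding transcripts only, the beta2 pair lay further apart, though still closer together than the other pairs. Psmb10 had 6.97 ± 1.23 TPM and Psmb7 had 109 ± 0.35 TPM (SD, n = 2), a log2 ratio of −3.96 ± 0.25, so that Psmb7 exceeded Psmb10 by 17.8 times in replicate 1 and 13.9 times in replicate 2. Psmb9 had 0.43 and 0.94 TPM while Psmb6 had 84.1 and 84.8 TPM. Psmb8 had 1.11 and 1.41 TPM while Psmb5 had 95.05 and 102.76 TPM. The immunoproteasome share was then 2.59% in replicate 1 and 3.32% in replicate 2 (2.96 ± 0.52). When all counts of each gene were placed on its leading coding transcript, Psmb10 had 16.9 and 17.9 TPM and the share was 6.18% and 6.26%. The direction of the 3 pairs was the same on each of these scales and in the read-based table.

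Psmb8 and Psmb9 lie in the MHC class II region of chromosome 17 with Tap1, which pumps peptides into the endoplasmic reticulum, between them. Psmb9 (chr17:34181987-34187764, minus strand) overlaps the plus-strand Tap1 (chr17:34187553-34197225) by 212 bases, and Psmb8 (chr17:34197721-34201454, plus strand) starts 495 bases beyond the end of Tap1. Exons of Psmb9 overlap those of Tap1 on the opposite strand, and exons of Psmb8 overlap those of the antisense gene Gm20496. The sources used here do not say whether counting used the strand, so the low values of Psmb8 and Psmb9 are uncertain on that account too. Tap1 itself had 2.29 TPM in replicate 1 and 2.40 TPM in replicate 2. Exons of another gene also overlapped those of other members: 15 of the 50 in all, 12 of them on the opposite strand. No share over all genes is given beside that count.

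Most genes of MHC class I presentation and interferon response lay below the median of detected protein-coding genes: 5 of 12 and 2 of 15 lay above it in both libraries. Of the 12 presentation genes, 11 were detected in both, with a median of 6.27 TPM in replicate 1 and 7.17 TPM in replicate 2. Calr, a chaperone of many glycoproteins, was the highest at 203 and 198 TPM, and Nlrc5, the activator of class I genes, the lowest at 0.22 and 0.29 TPM. The class I light chain gene B2m had 36.1 and 33.97 TPM, and the heavy chain gene H2-K1 4.86 and 6.93 TPM. Of the 15 interferon response genes, 10 were detected in both, with a median of 2.24 and 2.94 TPM. Ifngr2, a chain of the interferon-gamma receptor, was the highest at 32.1 and 31.5 TPM, and the antiviral Ifit1 the lowest at 0.06 and 0.02 TPM. Irf1, which drives immunoproteasome genes in stimulated cells, had 2.24 and 2.94 TPM.

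Markers of the cells known for immunoproteasomes were measured beside them. All 10 microglia markers were detected, summing to 167 TPM in replicate 1 and 194 TPM in replicate 2, with the receptor Trem2 the lowest at 3.53 and 3.3 TPM. The lymphocyte markers summed to 1.37 TPM in each library, none of the 8 reached 1 TPM in both, and none was listed at 0 in both. The values ran from Ptprc at 1.12 and 0.85 TPM down to Cd3d at 0.03 and 0 TPM. Ptprc, which made up the larger part of each sum, is a gene of leukocytes in general, microglia included. The 8 endothelial markers were all detected, summing to 109 and 113 TPM, between Cldn5 at 43.4 and 45.4 TPM and Tek at 5.36 and 5.45 TPM. The part of these cells in the immunoproteasome levels was not tested.

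The tissue-restricted core genes were at the floor. Psma8, the alpha subunit of testis proteasomes, had 0.06 TPM on 2 counts in replicate 1 and 0.33 TPM on 9 counts in replicate 2. Psmb11, the beta5t subunit of thymus cortical epithelium, had 0.09 TPM on 8 counts and 0.07 TPM on 7 counts. Psmb11 lies 3410 bases from Psmb5, on the opposite strand of chromosome 14.

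The 17 members of the 19S regulatory particle had a median of 58.1 TPM in replicate 1 and 56.9 TPM in replicate 2 (57.5 ± 0.83, SD, n = 2), and the 14 constitutive core genes a median of 71.5 and 69.4 TPM (70.5 ± 1.49). The 19S subunit genes Adrm1 and Sem1 fall outside the symbol rule and are described with the partners below. Their ranges overlapped: 34.4 to 118 TPM and 34.3 to 122 TPM for the 19S particle, and 30.3 to 126 TPM and 28.8 to 142 TPM for the core. Among the 6 ATPases, which unfold the substrate, Psmc1 was the highest at 90.7 TPM in replicate 1 and 93.7 TPM in replicate 2. Psmc6 was the lowest at 44.8 and 41.6 TPM. The other 4, Psmc3, Psmc4, Psmc5 and Psmc2, lay between 49.1 and 87.0 TPM.

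In the base, Psmd2, a large scaffold that binds ubiquitin shuttle factors, had 118 TPM in replicate 1 and 122 TPM in replicate 2, the highest of the 19S genes. Psmd4, a ubiquitin receptor, had 76.2 and 73.8 TPM, and Psmd1, the other scaffold, was the lowest member of the base at 53.9 and 49.97 TPM. In the lid, which cuts ubiquitin off the substrate, Psmd8 was the highest member at 79.6 and 77.6 TPM and Psmd12 the lowest member at 34.4 and 34.3 TPM. Psmd14, the lid's deubiquitinating enzyme, had 58.1 and 55.96 TPM.

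The assembly chaperones among the members, Psmg1 to Psmg4, Psmd5, Psmd9 and Psmd10, were lower than the particles they build, unlike the maturation factor Pomp, which is no member and is described with the partners below. The 20S chaperones lay between 10.1 and 12.6 TPM in replicate 1 and between 7.0 and 11.6 TPM in replicate 2, with Psmg4 the highest at 12.6 and 11.6 TPM and Psmg3 the lowest at 10.1 and 7.0 TPM. These genes act in pairs, and the log2 ratio of TPM was −0.10 ± 0.08 for Psmg1 over Psmg2 and −0.52 ± 0.29 for Psmg3 over Psmg4 (SD, n = 2). Among the 19S chaperones Psmd5 was the highest by mean at 17.3 and 18.2 TPM, Psmd9 had 17.4 and 14.3 TPM, and Psmd10, also called gankyrin, was the lowest at 6.06 and 7.62 TPM. None of these 7 chaperones reached the lowest constitutive core or 19S gene in either library.

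Activators replace the 19S particle on the barrel and open it without ubiquitin. Psme3, the nuclear PA28-gamma, had 42.3 TPM in replicate 1 and 46.0 TPM in replicate 2. Psme1 and Psme2, the interferon-responsive PA28-alpha and PA28-beta that form a mixed ring, had 38.2 and 33.7 TPM and 23.6 and 31.8 TPM. Psme1 exceeded Psme2 by 0.69 on the log2 scale in replicate 1 and by 0.08 in replicate 2 (0.39 ± 0.43). Psme4, which encodes PA200, had 26.6 and 20.8 TPM. Psme2b, a Psme2-like gene whose reads may be shared with Psme2, had 0.51 and 0.46 TPM. Psmf1, which encodes the proteasome-binding protein PI31, had 20.7 and 19.2 TPM, and Psmc3ip, the name match, had 2.56 and 1.83 TPM.

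Partner genes outside the symbol rule had levels like those of the members. They include Adrm1 and Sem1, which encode 19S subunits whose symbols the rule does not match. Adrm1 had 51.2 TPM in replicate 1 and 56.9 TPM in replicate 2, and Sem1 had 27.4 and 26.7 TPM. Of 17 partner genes (ubiquitin receptors, deubiquitinases, further assembly factors and the like), 16 were matched and all 16 were detected, with a median of 53.9 TPM in replicate 1 and 55.7 TPM in replicate 2. Vcp, the ATPase that extracts ubiquitinated proteins, was the highest at 115 and 116 TPM, and Uchl5, a deubiquitinase of the 19S particle, the lowest at 16.4 and 13.6 TPM. Pomp, the core maturation factor, had 75.8 and 91.4 TPM. Of 8 genes known to control proteasome genes, all were detected, with Nfe2l1 the highest at 84.7 and 90.8 TPM and Zfp143 the lowest at 4.22 and 3.5 TPM. Nfe2l2, a relative of Nfe2l1 that answers oxidative stress, had 4.33 and 3.93 TPM.

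The order of gene levels depended on which transcripts were counted. Protein-coding transcripts held a median of 88.4% of a detected gene's TPM in replicate 1 and 92.04% in replicate 2, beside 87.7% and 90.3% over the 13010 genes. Under 50% in both libraries were Psmb10 and Psmc3ip, 2 of 46 genes (4.35%), beside 8.06% of the 13010 genes. At 90% or more in both were 24 of the 50 genes, a count given without a share over the 13010 genes. Psma3 and Psmb4, the highest gene of its group in each case, were among the lowest in coding share. Psma3 had 50.3% and 52.6%, with the retained-intron Psma3-203 at 21.8 TPM in replicate 1 and 30.4 TPM in replicate 2. Psmb4 had 56.4% and 46.1%. Counting coding transcripts only, Psmb4 had 68.5 ± 4.09 TPM and Psma3 had 52.4 ± 6.12 TPM (SD, n = 2), and the highest core gene was Psmb7 at 108 and 109 TPM. Psma2 was the lowest core gene on either of these scales. By coding transcripts of the read-based table, Psma3 was lower than Psma2, at 18.6 and 15.2 TPM beside 36.0 and 36.6 TPM.

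**Figure D4:**
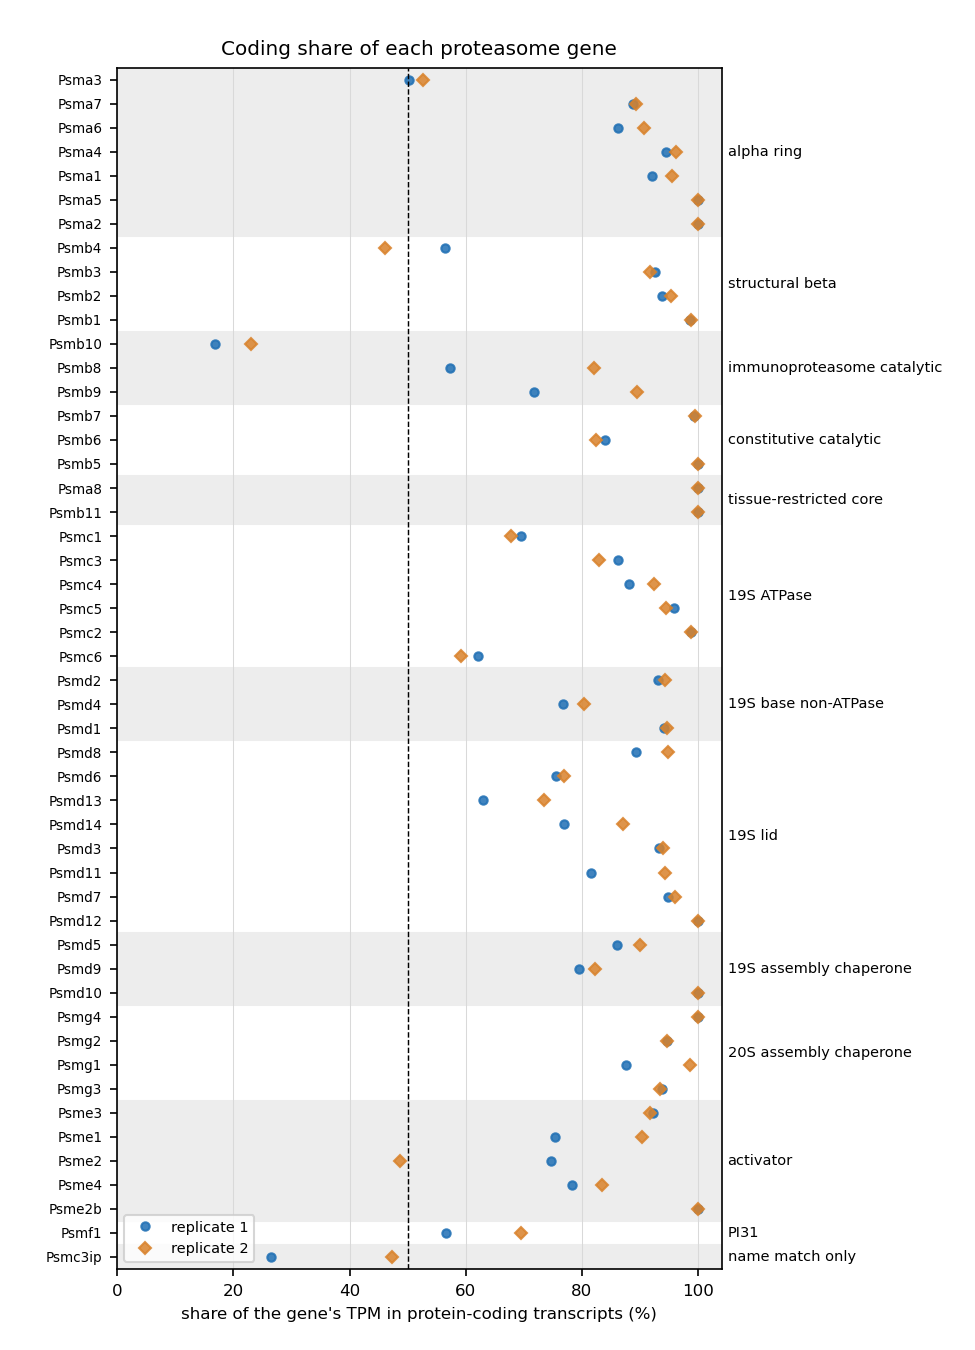
Share (%) of each proteasome gene's TPM held by its protein-coding transcripts in replicate 1 (blue circles) and replicate 2 (orange diamonds), grouped by role; the dashed line marks 50%. Psmb10 lies at 16.9% and 23.0%, Psma3 and Psmb4 lie near the line, and most genes lie above 75%.

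The same coding transcript led in both libraries for 40 of the 46 detected genes, and for 33 of them it also led in both libraries of the read-based table. Among detected genes, the exceptions between libraries were Psmd9, Psmd10, Psmg4, Psme2 and Psmc3ip, and Psmb10 was led by a noncoding transcript in both. In Psmd10, Psmd10-202 had 4.38 TPM in replicate 1 and 2.08 TPM in replicate 2 while Psmd10-201 had 1.68 and 5.54 TPM. In Psmg4, Psmg4-202 had 9.01 and 5.00 TPM while Psmg4-201 had 3.63 and 6.62 TPM. Psme2 was led by the coding Psme2-201 in replicate 1 and by Psme2-203, a retained-intron transcript, in replicate 2, and its coding share was 74.7% and 48.6%. Other genes were led by different transcripts in the 2 tables, among them Psma3, Psmb1, Psmb8, Psmc6, Psmd8, Psmd13 and Psme1. Psmb8 was led by Psmb8-203 in the alignment-based table, at 0.94 TPM in each library. In the read-based table Psmb8-201 led, at 1.68 TPM in replicate 1 and 1.54 TPM in replicate 2. In Psma3 the read-based table put 8.68% and 6.45% of TPM on coding transcripts, against 50.3% and 52.6% in the alignment-based table. Coding shares of such genes therefore depend on the table.

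Between the replicate pools the proteasome genes differed little in size, as did nuclear protein-coding genes with 200 or more summed counts. None of the 50 was called at an adjusted p under 0.05 (exact binomial test) with a log2 ratio of at least 1 in size. The test was two-sided, on each gene's rounded expected counts, with TMM scaling and Benjamini-Hochberg adjustment. The background was 2.56% over all 20544 genes tested and 0.29% over the deeper genes described next, so the absence of calls does not set the members apart. An unadjusted p under 0.05 by the same test was found for 20 of the 50. No background was computed for that count, so it does not set the members apart. By adjusted p alone, 18 of the 50 (36.0%) passed, 2 higher in replicate 1 and 16 higher in replicate 2. The background by that rule was 26.6% of all genes tested, 11.1% higher in replicate 1 and 15.5% higher in replicate 2. Among nuclear protein-coding genes with 200 summed counts or more, it was 35.7%, 11.3% and 24.4%. Of the 44 members above that floor, 40.9%, 4.55% and 36.4% passed. The floor does not match the genes by depth, and most members lay well above it. These shares are therefore not compared at like depth. The test compares these 2 libraries and not conditions, and it has no replicate check.

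The ratios were small: 49 of the 50 genes (98%) lay within 1.5-fold of equal, beside 98.3% of the deep protein-coding genes. The median log2 ratio, replicate 1 over replicate 2, was −0.08 over the 50 genes and 0.01 over all genes tested. It was −0.09 over the 44 deep members and −0.04 over the deep protein-coding genes. The split between the libraries moved with the scaling: it was 34 higher in replicate 1 and 0 higher in replicate 2 with spike-in totals, and 4 and 4 with total counts. Over the 20544 genes tested the split moved too: spike-in totals put 10573 genes on the side of replicate 1 and 375 on that of replicate 2, and total counts put 3780 and 1753 there. Spike-in scaling moved the median of the deep protein-coding genes by 0.28 on the log2 scale. Relative to that median, 17 of the 50 members lay above and 33 below, a split that no scaling can change. With genes under 100 summed counts left out, 13 members lay above and 31 below.

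The largest ratio was that of Psma8, at −1.89 on 2 counts in replicate 1 and 9 in replicate 2 (adjusted p = 0.185, exact binomial test). Psmd10 had 163 counts in replicate 1 and 228 in replicate 2, a log2 ratio of −0.45 with a counting standard error of 0.15 (adjusted p = 0.0129, exact binomial test). Psmg3 had 177 and 135 counts, a ratio of 0.42 with a standard error of 0.17 (adjusted p = 0.0443, exact binomial test). Psma3 had the smallest adjusted p of the 50, with 1982 counts in replicate 1 and 2473 in replicate 2 and a log2 ratio of −0.29 (adjusted p = 9.42e-10, exact binomial test). Of the active-site genes, Psmb5 (−0.20) and Psmb6 (−0.13) were higher in replicate 2 past the adjusted p, at 0.000514 and 0.0462 by the exact binomial test. Psmb10 (−0.18, adjusted p = 0.159), Psmb9 (−0.28, adjusted p = 0.896) and Psmb8 (0.03, adjusted p = 1) were not past it by the exact binomial test. Of the partner genes, 8 of 16 passed the adjusted p, all higher in replicate 2, where the background was 24.4% of the deep protein-coding genes and 15.5% of all genes tested, and none was called.

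**Figure D5:**
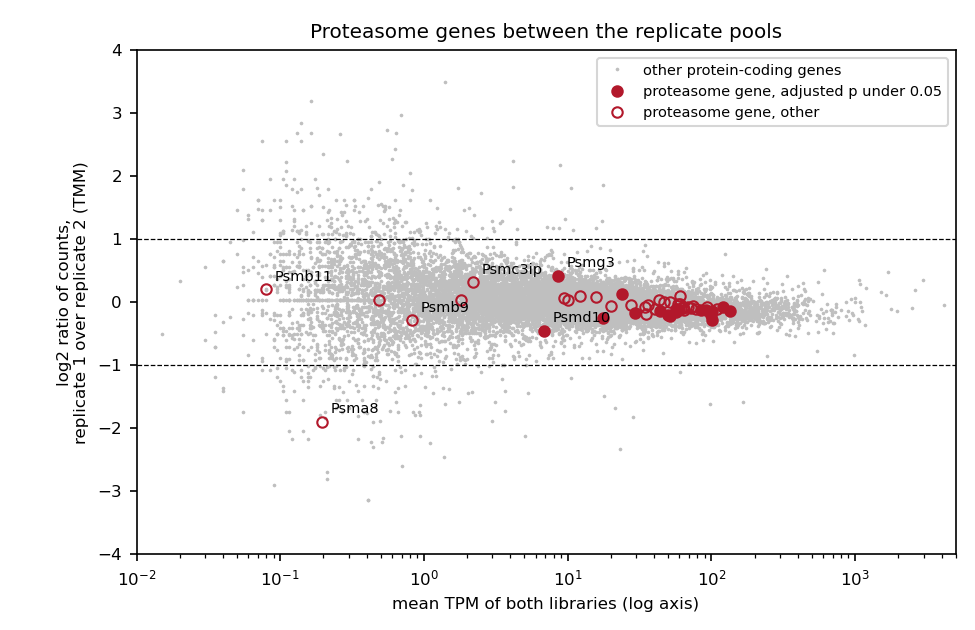
Log2 ratio of counts, replicate 1 over replicate 2 with TMM scaling (y axis), against the mean TPM of both libraries (x axis, log), for protein-coding genes (grey) and the 50 proteasome genes (red, filled where the adjusted p is under 0.05). Dashed lines mark a log2 ratio of 1 either way, 24 other genes fall outside the axes, and of the proteasome genes only Psma8, on 2 and 9 counts, lies beyond the lines.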

How the data were processed

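Total RNA-seq of 2 hippocampus libraries was analysed from the deposited tables, on mm10 with annotation M21 per the submitters' processing notes. The gene table holds expected counts, TPM and FPKM per gene as the authors deposited them, named so per the file headers; the alignment-based and read-based transcript tables hold the authors' deposited expected or estimated counts and TPM. Neither the programs nor the use of strand is given in the sources used here. The members and gene lists were chosen with earlier results of these data known.

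Levels are TPM, detected at 1 or more; pair ratios add 0.1 TPM. Expected counts were rounded and compared between libraries by an exact binomial test over genes with 10 or more summed counts, with 0.5 counts added for ratios, TMM sizes from edgeR 4.0.16 (R 4.3.3), Benjamini-Hochberg adjustment, and scipy 1.17.1 and pandas 2.3.3 in Python 3.11.15. The test was tested on simulated Poisson counts without spread between animals, so that check does not cover such spread. DESeq2 1.42.0 size factors were an alternative. The pools have different animals, but p-values measure only the spread of counting. Named genes were the active-site, tissue-restricted and activator genes, Psmf1, Psmc3ip, the highest and lowest of each group, the 3 largest ratios, genes whose leading transcript differs, and extremes and called genes of each list; others named were chosen after their values were seen. A few genes of these lists are not reported here.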

Additional observations from a re-analysis of the deposited data

How the results depend on the processing

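The direction of the 3 active-site pairs and the absence of called members were the same under all alternatives run. Detected genes numbered 46 as reported, 47 at 0.5 TPM and 44 at 5 TPM. The immunoproteasome share, 10.9% as reported, was 13.7% in the read-based table. Scales added after seeing the data gave 6.22% with all counts on the leading coding transcript, 2.96% with coding transcripts and 4.66% with coding transcripts of the read-based table. On the same 4 scales Psmb10 over Psmb7 was −1.42, −2.66, −3.96 and −3.33 (log2, −1.64 as reported). Psmb9 over Psmb6 (−6.82) was −6.19 with posterior mean TPM, −7.38 with all counts on the coding transcript and −5.82 with 1 TPM added. Psmb8 over Psmb5 (−5.69) was −5.40, −5.24 and −5.14 in those settings, and −6.19 and −6.09 with coding transcripts of the alignment-based and read-based tables. The −5.24 places all Psmb8 counts on Psmb8-203, which does not lead in the read-based table. Members past the adjusted p numbered 18 with TMM, 8 with total counts and 34 with spike-in totals, beside 5460, 5533 and 10948 of all 20544 genes. Leaving out a library gave shares of 10.5 to 11.3%, ratios of −7.16 to −6.47, −1.68 to −1.60 and −5.82 to −5.55, 46 to 47 detected genes and 44 to 45 led by a coding transcript. No paired analysis was possible because there is 1 group. Counts of 12 to 40 limit Psmb9 and Psmb8.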
